A study of Gallus gallus with 6 samples.

Results

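The genes described here encode telomerase and the proteins that bind chromosome ends, measured in ICP1, a chicken preadipocyte line that divides without limit. A list of 10 symbols was looked up by name among the 18495 genes of the deposited table: the catalytic subunit TERT, the shelterin proteins TERF1, TERF2, TERF2IP, POT1, ACD and TINF2, and the dyskerin complex proteins DKC1, NHP2 and GAR1. Of these 10, 8 were matched. ACD and TINF2 were not matched under those symbols, and a row at the position of ACD is given apart. Poly(A)-selected RNA was sequenced from 6 wells, 48 h after transfection. The EV group received the empty plasmid pCMV-myc (3 wells), and the KLF2 group received pCMV-myc-KLF2, which encodes KLF2, a Krüppel-like zinc-finger factor (3 wells). All 6 wells hold the same line and were lysed as whole wells, so each p-value rests on well-to-well spread within a single line, and in such bulk RNA fewer cells of a type cannot be told apart from less RNA per cell. ICP1 is known to have been made by retroviral transduction of chicken TERT, which is background and is not stated in the labels. If so, all wells of both groups carry that transgene, and its reads and those of the chromosomal TERT gene form a single count.

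Telomerase is a reverse transcriptase that extends chromosome ends by copying a template carried in its own RNA. TERT is its catalytic protein and is repressed in most somatic cells of humans and chickens. The RNA subunit is bound and stabilised by the dyskerin complex, whose proteins also guide pseudouridylation of ribosomal RNA and are therefore made in every growing cell. Shelterin coats the telomeric repeats: TERF1 and TERF2 bind the double-stranded repeats, POT1 binds the single-stranded overhang, ACD and TINF2 link these proteins, and TERF2IP binds TERF2.

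Assigned reads ran from 13255169 to 14168807 per library. Ribosomal RNA genes made up 0.350% of reads in EV 1, 0.131% in KLF2 3 and 0.00162% to 0.0215% elsewhere. Of the 10893 genes averaging 20 or more normalized counts, EV 1 and KLF2 3 held the 2 highest values for 25.6% and the 2 lowest for 26.4%. These libraries belong to opposite groups and stand apart from the other 4. For KLF2 and the matched genes, log2 fold changes without both are given beside the results or in the closing sections. The list genes and the rows given apart are reported with all 6 libraries only. The normalized count is the read count divided by a size factor per library, and values are given in the order of replicates 1 to 3. KLF2 itself had 1093, 675 and 697 normalized counts in the EV wells and 1052, 1618 and 2412 in the KLF2 wells. Its groups overlapped, and it did not pass in limma (log2 fold change 1.00, SE 0.31, unadjusted p = 0.0126, adjusted p = 0.962). In DESeq2 on the recovered reads the log2 fold change of KLF2 was 1.04 (unadjusted p = 0.000302, adjusted p = 0.9999). Without EV 1 and KLF2 3 it passed in limma (log2 fold change 0.93, adjusted p = 0.0184), where leaving out EV 1, the only EV value above a KLF2 value, ended the overlap by construction.

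Fibroblast and preadipocyte markers were present as the cell type label says. All 17 such markers were found and 16 had a mean of at least 20, among them PDGFRA at 8070 and COL1A1 at 30422 normalized counts; DLK1, at 3.12, was the exception. Their summed level was 188651 to 210516 in EV and 174866 to 193048 in KLF2 libraries, of which VIM alone had a mean of 103482. The adipocyte markers summed to 49.7 to 55.0 in EV and 22.8 to 41.1 in KLF2 libraries, the muscle markers to 20.7 to 28.5 and 4.06 to 29.6, and the epithelial markers to 11.2 to 16.2 and 3.05 to 15.3. Endothelial markers summed to 160 to 197 and 146 to 171, of which CDH5 alone had a mean of 130. Neural markers summed to 104 to 154 and 88.9 to 215, of which TUBB3 alone had a mean of 139. Leukocyte markers summed to 982 to 1356 and 1028 to 1337, of which SPI1 alone had a mean of 950. None of the markers found was at 0 in all libraries. Their part in the values below was not tested.

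TERT was among the more abundant messages of these cells. The gene, ENSGALG00010008150, lies on the minus strand of chromosome 2 from 85363152 to 85392371 in GRCg7b. It had 5743, 5642 and 6531 normalized counts in the EV wells and 8078, 6744 and 5806 in the KLF2 wells. The single highest value was in KLF2 1, while KLF2 3 lay among the EV libraries, so the groups overlapped. Per length, TERT had an RPKM (reads per kilobase of gene model, scaled to 1000000 assigned reads) of 105 ± 14.8 (SD over 6 libraries), which placed it at rank 540 of 18495 genes, above 97.1% of the table. The median gene averaging 20 or more normalized counts had an RPKM of 11.2. The gene model used for this length is 4501 bases long, and a transgene may hold less of it.

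TERT averaged 5972 ± 487 in the EV wells and 6876 ± 1142 in the KLF2 wells (SD, n = 3). KLF2 against EV gave a log2 fold change of 0.19 (SE 0.15, 95% interval -0.13 to 0.52), which did not pass in limma with Benjamini-Hochberg adjustment over all genes (adjusted p = 0.962). By exact permutation (two-sided) p was 0.2, and 0.1 is the lowest that 3 wells per group can reach. The interval runs from 0.911 to 1.44 times the EV level, so a doubling of the whole TERT count lay outside it. If a transgene is part of that count, the interval does not bound a change of the chromosomal gene alone. Without KLF2 1 the log2 fold change was 0.07, without KLF2 3 it was 0.31, and without EV 1 and KLF2 3 it was 0.28. Among the KLF2 libraries, the one with the most KLF2 (KLF2 3, 2412 normalized counts) had the least TERT (5806), and the one with the least KLF2 (KLF2 1, 1052) had the most TERT (8078). Among the EV libraries, the one with the least KLF2 (EV 2, 675) also had the least TERT (5642). KLF2 1 had less KLF2 than EV 1 (1052 against 1093 normalized counts). KLF2 3 is a library set apart above, and a relation between the levels of these genes was not tested.

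**Figure D1:**
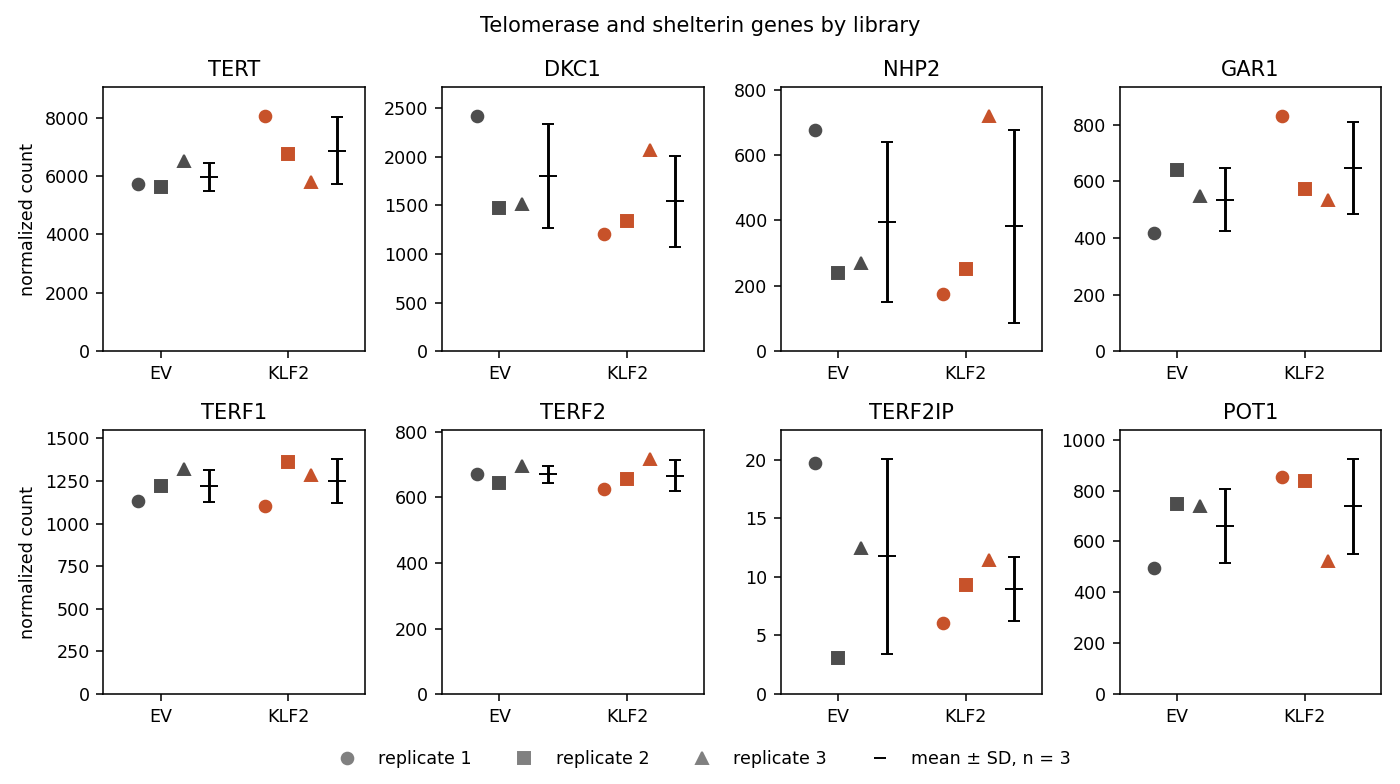
Normalized count of each of the 8 matched genes in every library (y axis from 0, one scale per panel), with EV in grey, KLF2 in orange, one marker shape per replicate number, and the mean ± SD (n = 3) beside the points. The groups overlap in all 8 panels; NHP2 and DKC1 are highest in EV 1 and KLF2 3, and POT1 is lowest there.

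The messages of the dyskerin complex varied more between libraries of a group than between the groups. DKC1, the pseudouridine synthase dyskerin (ENSGALG00010015521, chromosome 4, 2072930 to 2087743, plus strand), had 2427, 1478 and 1517 normalized counts in the EV wells and 1208, 1343 and 2074 in the KLF2 wells. The 2 highest values were those of EV 1 and KLF2 3, where ribosomal RNA took its largest shares (0.350% and 0.131%). Between groups DKC1 had a log2 fold change of -0.23 (SE 0.24, 95% interval -0.77 to 0.31), with adjusted p = 0.962 in limma. Without EV 1 it was 0.0013, without KLF2 3 it was -0.46, and without both it was -0.23.

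NHP2, a small core protein of the complex (ENSGALG00010012228, chromosome 13, 9701546 to 9703360, plus strand), had 675, 237 and 269 normalized counts in the EV wells and 175, 252 and 720 in the KLF2 wells. EV 1 and KLF2 3 were again highest, and the other 4 libraries lay between 175 and 269. The highest value was 4.12 times the lowest, and the log2 range of 2.04 exceeded that of 97.0% of the 10893 genes averaging 20 or more. Between groups NHP2 had a log2 fold change of -0.15 (SE 0.66, 95% interval -1.79 to 1.49; adjusted p = 0.983 in limma), so a 2-fold difference in either direction lay within the interval. It turned to 0.32 without EV 1, was -0.74 without KLF2 3 and was -0.27 without both. In edgeR and DESeq2 on the recovered reads it was -0.04.

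GAR1, the complex protein that acts in the pseudouridylation step (ENSGALG00010003838, chromosome 4, 57635664 to 57640850, minus strand), had 417, 639 and 548 normalized counts in the EV wells and 833, 574 and 535 in the KLF2 wells. EV 1 and KLF2 3 held the 2 lowest values, the opposite order to DKC1 and NHP2. Of these 2 only EV 1 (417) stood apart, since KLF2 3 (535) lay close to EV 3 (548). GAR1 had the highest log2 fold change of the 8 genes, 0.27 (SE 0.21, 95% interval -0.19 to 0.72), without passing in limma (adjusted p = 0.962). Without KLF2 1 it was 0.07, without EV 2 it was 0.41, and without EV 1 and KLF2 3 it was 0.22.

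Read within each library, where scaling cancels, the messages of this complex were not in a fixed ratio. Reads per kilobase of GAR1 were 0.312, 0.786 and 0.657 of those of DKC1 in the EV wells, and 1.25, 0.776 and 0.469 of them in the KLF2 wells. For NHP2 the ratio to DKC1 was 0.666, 0.385 and 0.425 in the EV wells and 0.346, 0.449 and 0.831 in the KLF2 wells. The GAR1 ratio was lowest, and the NHP2 ratio highest, in EV 1 and KLF2 3. On the log2 scale the GAR1 to DKC1 ratio was -1.74 ± 0.70 in the EV wells and -1.24 ± 0.71 in the KLF2 wells (SD, n = 3; exact two-sided permutation p = 0.5, adjusted over 4 ratios 0.9).

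**Figure D2:**
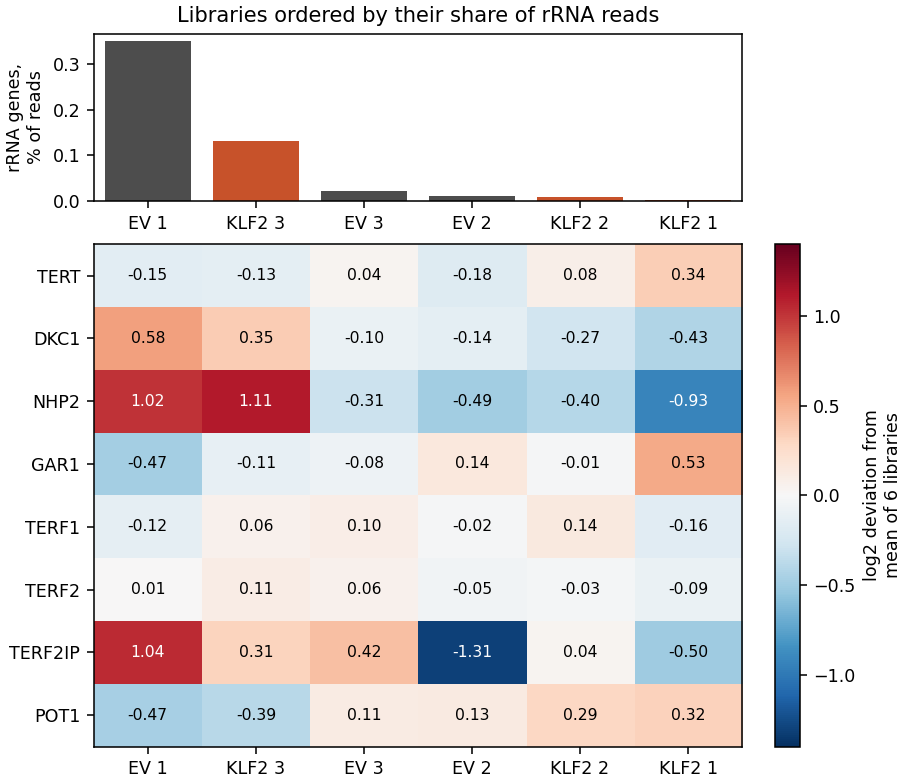
Libraries ordered from left to right by the share of reads from ribosomal RNA genes (bars, % of assigned reads, EV in grey and KLF2 in orange), with the log2 deviation of each gene from its mean over 6 libraries below (colour and printed value). NHP2 stands 1.02 and 1.11 above its mean in EV 1 and KLF2 3, where POT1 stands at -0.47 and -0.39, while TERF2 stays between -0.09 and 0.11.

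The TRF proteins TERF1 and TERF2 were the steadiest of the 8 genes. TERF1 (ENSGALG00010002814, chromosome 2, 117336150 to 117360206, plus strand) had 1131, 1218 and 1319 normalized counts in the EV wells and 1106, 1360 and 1287 in the KLF2 wells. TERF2 (ENSGALG00010008246, chromosome 11, 18585722 to 18593537, minus strand) had 671, 643 and 696 in the EV wells and 626, 656 and 719 in the KLF2 wells. For neither gene did a library or a group stand apart. The highest TERF2 value was 1.15 times the lowest, a log2 range wider than that of only 3.03% of the 10893 genes averaging 20 or more. For TERF1 the highest value was 1.23 times the lowest, a range wider than that of 11.0% of those genes.

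The log2 fold change of TERF1 was 0.03 (95% interval -0.29 to 0.35; adjusted p = 0.986 in limma), and that of TERF2 was -0.01 (95% interval -0.33 to 0.31; adjusted p = 0.995 in limma). These intervals correspond to 0.820 to 1.27 times and 0.794 to 1.24 times the EV level, so the intervals leave out changes of 1.5-fold. Without EV 1 and KLF2 3 the log2 fold change was -0.05 for TERF1 and -0.06 for TERF2. In each library TERF1 exceeded TERF2 per length, by 1.37, 1.54 and 1.54 times in the EV wells and 1.44, 1.69 and 1.46 times in the KLF2 wells. The log2 ratio on normalized counts did not differ between groups beyond the spread (0.90 ± 0.13 in KLF2, 0.86 ± 0.10 in EV, SD, n = 3; exact two-sided permutation p = 0.8, adjusted over 4 ratios 0.9).

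POT1, which binds the single-stranded overhang (ENSGALG00010001194, chromosome 1, 21910949 to 21977311, plus strand), had 494, 747 and 739 normalized counts in the EV wells and 855, 838 and 523 in the KLF2 wells. EV 1 and KLF2 3 were the 2 lowest, the opposite order to DKC1 and NHP2. Of the 7 members averaging 20 or more, 2 had these libraries highest and 2 had them lowest, beside the 25.6% and 26.4% of all such genes, so these shares are near the background. Across the 6 libraries the Pearson correlation of log2 values was -0.988 for POT1 with DKC1, -0.973 for POT1 with NHP2 and 0.964 for DKC1 with NHP2. These are descriptions of 6 points that share the library differences given above. The log2 fold change of POT1 was 0.15 (SE 0.23, 95% interval -0.34 to 0.64; adjusted p = 0.962 in limma). It was -0.04 without EV 1, 0.38 without KLF2 3 and 0.19 without both. Whether the ribosomal RNA share has a part in the levels of DKC1, NHP2, GAR1 and POT1 was not tested.

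TERF2IP, the chicken counterpart of mammalian RAP1 (ENSGALG00010008811, chromosome 11, 19511090 to 19514504, minus strand), was near the floor. It had 20, 3 and 13 reads in the EV wells and 6, 9 and 12 in the KLF2 wells. Both the highest and the lowest value were in EV libraries. Its whole span of 3415 bases lies inside KARS, a lysyl-tRNA synthetase gene on the other strand, whose mean was 6199 normalized counts. Nothing in the labels' protocols marks strand, so reads from any shared exons cannot be told apart. Whether exons overlap was not examined, so the low count may not be a measure of the TERF2IP message. The log2 fold change of -0.10 (95% interval -1.46 to 1.25; adjusted p = 0.988 in limma) turned to 0.39 without EV 1 and was -0.78 without EV 2. It was -0.39 in edgeR and DESeq2 on the recovered reads, and 0.21 without EV 1 and KLF2 3.

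ACD joins POT1 to the TRF proteins. A row without a symbol, ENSGALG00010022666, spans 1178645 to 1186159 on chromosome 11, where RefSeq places ACD at 1178644 to 1185952 in the same build, and its deposited description names the Pfam family of TPP1/ACD. This row was looked for after the members had been matched. It had 330, 243 and 268 normalized counts in the EV wells and 217, 198 and 297 in the KLF2 wells, again with EV 1 and KLF2 3 highest. Between groups it had a log2 fold change of -0.25 (SE 0.22, 95% interval -0.72 to 0.22; adjusted p = 0.962 in limma). Per length it had an RPKM of 7.04 ± 1.42 (SD over 6 libraries), next to 6.53 ± 1.41 for POT1. Their mean normalized counts were 259 and 699. The nearness per length thus rests on gene models of 2715 and 7886 bases.

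Ordered by RPKM, the 8 matched genes ran from TERT at 105 through DKC1 at 30.8, GAR1 at 19.7, TERF1 at 19.0, NHP2 at 17.1, TERF2 at 12.6 and POT1 at 6.53 to TERF2IP at 0.278. TERT stood clear of DKC1, since its lowest library (91.5) lay above the highest of DKC1 (45.3). From DKC1 down to TERF2 each neighbouring pair overlapped over the 6 libraries. TERF2 was above POT1 per length without overlap, with a lowest value of 11.8 against a highest of 7.95. Their mean normalized counts were 668 and 699. The order of these 2 genes thus rests on gene models of 3903 and 7886 bases, and whether the cells use these lengths was not examined. Within a library TERT exceeded DKC1 2.11 to 5.96 times and TERF2 7.01 to 11.2 times per length.

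**Figure D3:**
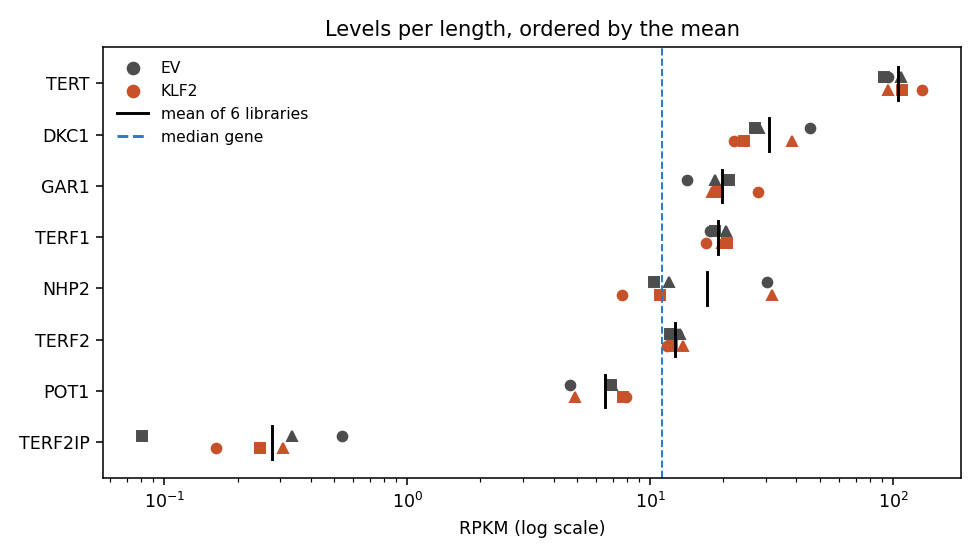
RPKM in each library (log axis) for the 8 matched genes, ordered by their mean (black line), with EV in grey and KLF2 in orange. The dashed line, at 11.2, is the median of the genes averaging 20 or more normalized counts. TERT, from 91.5 to 132, lies above every other gene shown, and TERF2IP lies below 0.537 in each library.

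Other genes can share stretches with these rows. DKC1 shares 5662 bases of its span with MPP1 on the other strand (mean 1290 normalized counts). TERF1 shares 3434 bases with SBSPON (mean 4.14), and GAR1 shares 348 bases with CFI (mean 77.3). These are overlaps of start and end; whether exons overlap was not examined. TERT, TERF2, POT1 and NHP2 shared no span with another gene of the table.

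For the comparison of KLF2 with EV, 0 of 8 genes passed the threshold of adjusted p 0.05 in limma, as did 0% of the 16765 genes tested. At an unadjusted p under 0.05 the count was 0 of 8, with 2.11% of all tested genes below it. Leaving out KLF2 3 took it to 2 of 8 (TERT and DKC1), beside 12.2% of the genes then tested. Leaving out EV 1 as well took it to 1 of 8 (TERT), beside 10.0% of them. The lowest adjusted p of the 8 was 0.375 and 0.320 in these limma fits. The groups of 0 of 8 were without overlap, against 6.65% of all tested genes. In mean log2 value 4 of 8 were higher and 4 lower in KLF2 libraries, from -0.23 in DKC1 to 0.27 in GAR1. Their median of 0.01 lay beside a median of -0.01 over all tested genes. On the recovered reads the tests of edgeR and DESeq2 also passed 0 genes. At an unadjusted p under 0.05 were 150 of 11860 genes fitted in edgeR (1.26%) and 173 of 18495 in DESeq2 (0.935%). In limma there were 354 of 16765 (2.11%). The authors' deposited table listed log2 fold changes of 0.20 for TERT, 0.27 for GAR1, 0.16 for POT1, -0.23 for DKC1, -0.04 for NHP2 and -0.39 for TERF2IP, each with an adjusted p of 0.9999. As printed, these log2 fold changes are the same as those of DESeq2 on the recovered reads, so they are not a further independent result.

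**Figure D4:**
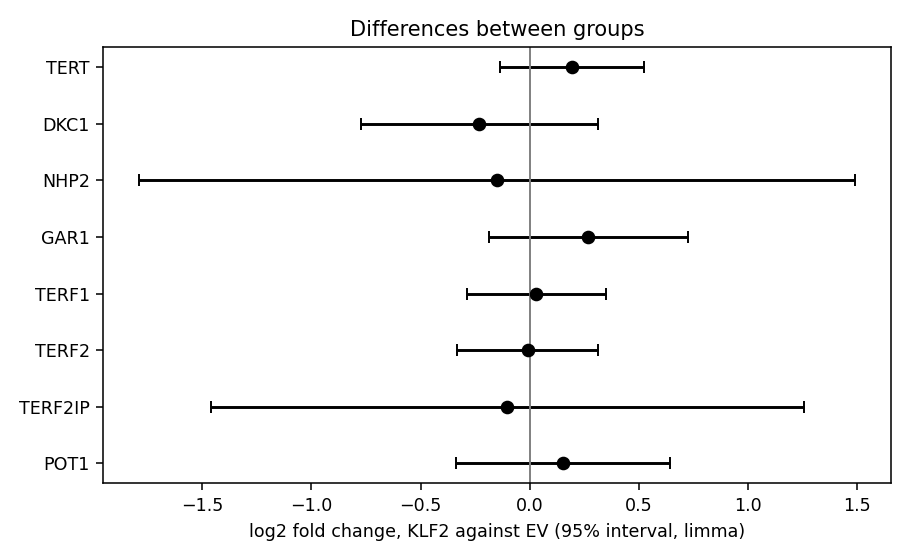
Log2 fold change of KLF2 against EV (x axis, log2 scale) with its 95% interval in limma for the 8 matched genes. All 8 intervals include 0; those of TERT, TERF1 and TERF2 are narrow, and that of NHP2 runs from -1.79 to 1.49.

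Around these members, 7 lists of telomere, telomerase and cell arrest genes were examined, with 143 distinct symbols of which 122 were matched and 121 tested. The member TERF2IP is counted again here, in the list of telomeric chromatin and recombination-based maintenance. Of the genes named below, EV 1 and KLF2 3 were the 2 lowest for HSP90AA1, PTGES3, PARN, POLR1A, PRIM2, RPA3, STN1 and ATR. The same held for EXO1, ATRX, NSMCE2 and GABPA, while NCL had these libraries highest. Over all lists 0 genes passed in limma, 1 was at an unadjusted p under 0.05 (0.826%, against 2.11% of all tested genes), and 3 had groups without overlap (2.48%, against 6.65%). In the list of telomerase assembly, RNA maturation and trafficking, 15 of 22 symbols were matched and tested, 0 passed, and the median log2 fold change was 0.06. It held HSP90AA1, a chaperone of TERT, at 21722 ± 1018 normalized counts in the EV wells and 25820 ± 4239 in the KLF2 wells (SD, n = 3), with a log2 fold change of 0.24. The co-chaperone PTGES3 had a log2 fold change of 0.16. PARN, a deadenylase that matures the telomerase RNA in human cells, had 0.19, and the acetyltransferase NAT10 had 0.30. The RNA subunit TERC and the dyskerin partner NOP10 were not matched by symbol.

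Of the dyskerin and other small nucleolar ribonucleoprotein partners, 9 of 12 were tested and 0 passed, with a median log2 fold change of 0.11. NPM1, the nucleolar protein nucleophosmin, was higher in every KLF2 library than in any EV library, with 8721, 9729 and 9343 normalized counts in the EV wells and 12330, 11033 and 10310 in the KLF2 wells (log2 fold change 0.27, adjusted p = 0.962 in limma). NOLC1, POLR1A and NCL, which encode nucleolar proteins and a subunit of RNA polymerase I, had log2 fold changes of 0.11, 0.17 and -0.50. In the list of CST and telomere replication genes, 17 of 18 were tested, 0 passed and the median was 0.04. In mean 9 were higher and 8 lower. CST is the complex that lets DNA polymerase alpha fill in the end. Its subunit STN1 averaged 195 in KLF2 and 182 in EV libraries, and its subunit TEN1 had 4.02 and 3.25. RPA2, part of the single-strand binding protein RPA, had 2200, 2469 and 2312 in the EV wells and 2913, 2614 and 2632 in the KLF2 wells without overlap (log2 fold change 0.22). PRIM2, a primase subunit, RPA3 and DNA2, a nuclease and helicase, had log2 fold changes of 0.40, 0.37 and 0.27 with overlapping groups.

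Of the end processing and damage response genes, 22 of 24 were tested, 0 passed and the median was 0.03. In mean 13 were higher and 9 lower. The lowest p-values among those with a mean of at least 20 were those of ATR, the kinase that responds to exposed single strands, EXO1 and DCLRE1B, nucleases that trim the ends, and NBN of the MRE11 complex, with log2 fold changes of 0.26, 0.22, 0.18 and 0.14. In the list of telomeric chromatin and recombination-based maintenance, 21 of 24 were tested, 0 passed and the median was 0.01. It held the single gene at an unadjusted p under 0.05, DAXX, a histone chaperone that works with ATRX. DAXX had 313, 184 and 189 normalized counts in the EV wells and 104, 133 and 169 in the KLF2 wells (log2 fold change -0.74, SE 0.27, adjusted p = 0.962 in limma). Its partner ATRX had a log2 fold change of 0.06. ZBTB48, which binds telomeric repeats in human cells, averaged 275 ± 59.6 in the EV wells and 187 ± 63.8 in the KLF2 wells (SD, n = 3; log2 fold change -0.59). NSMCE2, a SUMO ligase subunit that acts in recombination, had 0.25.

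**Figure D5:**
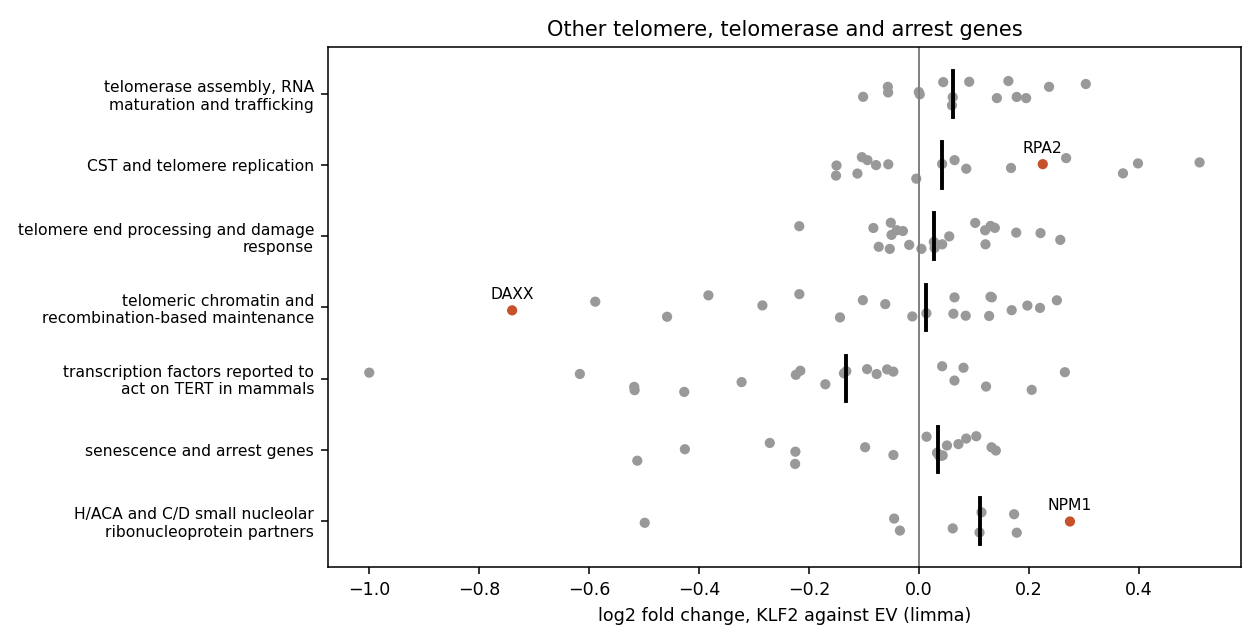
Log2 fold change of KLF2 against EV (x axis, limma) for each tested gene of the 7 lists (rows; vertical scatter is for display only), with the list median as a black bar. Orange points with names (RPA2, DAXX and NPM1) are the 3 genes whose groups did not overlap; none of the genes shown passed the threshold.

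Transcription factors reported to act on TERT in mammals had 21 of 24 tested, 0 past the threshold and a median log2 fold change of -0.13, with 15 lower and 6 higher in mean. Over all tested genes 49.1% were higher in mean, and the telomerase assembly list had 11 higher and 4 lower. Whether this list differs from the background was not tested. MYC, the best known activator, had 663, 547 and 617 normalized counts in the EV wells and 311, 617 and 744 in the KLF2 wells. The lowest and the highest MYC values were thus both in KLF2 libraries, and EV 1 and KLF2 3 held its 2 highest. MXD1 and MNT, which oppose MYC at its sites, had log2 fold changes of -0.32 and -0.52. SP1, a GC-box factor, had -0.62, with EV 1 and KLF2 3 highest, and GABPA, an ETS factor, had 0.27.

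Genes of senescence and arrest had 18 of 22 tested, 0 past the threshold and a median of 0.03, with 11 higher and 7 lower in mean. CDKN2A, a cell cycle inhibitor locus, had 2119, 2452 and 2184 normalized counts in the EV wells and 2002, 2265 and 2042 in the KLF2 wells. Per length this is an RPKM of 105, the level of TERT, and it was named after its value was seen. The inhibitors CDKN1A and CDKN2B had log2 fold changes of -0.43 and -0.27, and the cytokine IL6 had -0.23.

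The genes whose log2 values over the 6 libraries were most like those of TERT, among 10892 averaging 20 or more, were ENSGALG00010018176, FAM18B1, ARG2, ENSGALG00010012336 and AKAP1, with Pearson correlations of 0.990, 0.989, 0.988, 0.986 and 0.985. ARG2, a mitochondrial arginase, had 25.6, 21.4 and 32.5 normalized counts in the EV wells and 68.0, 41.4 and 22.9 in the KLF2 wells, so KLF2 1 was highest there too. For the mean of the standardized values of the 4 matched shelterin genes, the nearest were SPICE1, TIAM2, IL22RA1, ENSGALG00010026852 and TPR, from 0.991 to 0.981. The low count of TERF2IP enters this mean with the same weight as the other 3. With 6 points and more than 10890 genes such values describe likeness in these libraries only.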

How the data were processed

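Per the submitters' processing notes, the tools were HISAT2 2.0.5, featureCounts 1.5.0-p3, StringTie 1.3.3b and fastp, with build GRCg7b. For normalization and testing no program is named in the labels. The authors deposited a signal, a normalized count. All values (100%, tolerance 1e-06) were whole multiples of the lowest positive one in their library, which gave the reads. Per the file headers, the deposited table also holds the authors' log2 fold change, p-value and adjusted p.

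The design called for edgeR on raw counts or limma on normalized counts. Robust limma-trend (limma 3.58.1, R 4.3.3) was fitted on log2(normalized count + 1) keeping 16765 genes that averaged 1 or more in EV or in KLF2, with two-sided p-values adjusted by Benjamini-Hochberg; this scale understates changes of low genes. edgeR 4.0.16 (TMM, on the recovered reads) and DESeq2 1.42.0 were alternatives, with others of scaling, filter, pseudocount, block and left-out libraries. All 3 methods were tested on simulated data. Levels between genes used RPKM from the deposited gene length and the assigned reads.

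Members and lists were chosen with earlier results of these data known. Named were all members, KLF2, up to 4 lowest-p members per list with a mean of at least 20, the nearest patterns and overlapping genes; ATRX, STN1, TEN1, MYC, CDKN2A and the markers named were added after their values were seen. The RefSeq gene table (GRCg7b) gave the position of ACD. The planned promoter motif and protein comparisons, and the ratio of POT1 to ACD, were not run here. Some genes that the naming rule picked are not reported here.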

Additional observations from a re-analysis of the deposited data

How the results depend on the processing

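The count of genes past the threshold was 0 in limma and 0 under 14 of 15 alternatives. Without EV 1 and KLF2 3 it was 4, KLF2, RRM2, TNIP1 and ENSGALG00010000588, of which none is a telomere gene of the lists above; KLF2 then had a log2 fold change of 0.93. The limma count at an unadjusted p under 0.05, 354, was 2081 without KLF2 3, 1712 without EV 1 and KLF2 3, 235 without KLF2 1, 228 with the block and 180 at a mean of at least 10. Of 120 values for the 8 members under the alternatives, 104 kept their sign, 16 turned, and 0 passed (lowest adjusted p = 0.320 in limma). The 104 include signs that could not turn. The block, no filter and the filter at a mean of at least 10 leave a member's log2 fold change unchanged by construction. Outside the single left-out libraries, TERF2 was 0.011 under quantile normalization, and without EV 1 and KLF2 3 TERF1 was -0.048 and TERF2IP 0.21; the TERF2IP to TERF2 log2 ratio difference was then 0.28 and that of NHP2 to DKC1 was -0.037. Leaving out each library alone gave TERT 0.070 to 0.31, GAR1 0.073 to 0.41, TERF1 -0.033 to 0.12, TERF2 -0.065 to 0.035, TERF2IP -0.78 to 0.39, POT1 -0.044 to 0.38, DKC1 -0.46 to 0.0013 and NHP2 -0.74 to 0.32. The ratio differences ranged from -0.034 to 0.081 for TERF1 to TERF2, -0.74 to 0.40 for TERF2IP to TERF2, -0.28 to 0.35 for NHP2 to DKC1 and 0.099 to 0.86 for GAR1 to DKC1. The cause was not tested. In a fit with a block for replicate number, 0 genes passed. Each group holds every replicate number, so the block cannot change a log2 fold change, only its p-value. For TERT the unadjusted p in limma was 0.334 with the block and 0.225 without it. Same-numbered libraries had residual correlations of -0.600, 0.144 and -0.511, so the numbers were not read as pairs. Synonyms raised the list symbols matched from 122 to 123 and left the members at 8. Low counts limit TERF2IP and TEN1. The span of TERF2IP also lies inside that of KARS, and whether this affects its count was not tested.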

Other observations

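The row named NEDD8 on chromosome 35 (500734 to 508328 in GRCg7b) carries, in its deposited description, both the ubiquitin family and the N-terminal domain family of TERF1-interacting nuclear factor 2, the protein encoded by TINF2. It had 103, 17.3 and 29.6 normalized counts in the EV wells and 20.3, 23.8 and 81.2 in the KLF2 wells. EV 1 and KLF2 3 were highest. Which of the 2 messages these reads come from cannot be told apart at the level of this row, so it was not counted as TINF2.

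The span of DKC1 holds 5 rows of small nucleolar RNAs on the same strand, with means from 0.329 to 10.1 normalized counts. RNA was poly(A)-selected, so these values are no measure of the small RNAs themselves.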
